A study of Mus musculus with 8 samples.

Results

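Circadian clock genes were examined in the distal colon of mice with and without human Siglec-XII in the intestinal epithelium. The genes were Arntl, Per1, Per2, Per3, Cry1, Cry2, Nr1d1, Nr1d2, Dbp and Tef, 10 of the 52143 genes in the deposited table. They were chosen by symbol and not by their measured values, but with earlier results of these data known. All 10 were among the 13164 genes tested, which had at least 1 TPM, the transcript abundance scaled for length and library total, in at least 4 samples. The RNA-Seq data covered 4 control samples (Villin1-Cre-ERT) and 4 Siglec-XII samples (SIGLEC12-Villin1-Cre-ERT). Both genotypes carried Cre-ERT under the Villin1 promoter, which is active in villus and crypt epithelium, and both received tamoxifen stock (10 mg/ml) for 5 days. The Siglec-XII mice also carried 1 floxed knockin allele at ROSA26, in which the CAG promoter drives human SIGLEC12 after Cre removes an EGFP-stop cassette, so that the control mice had tamoxifen and Cre-ERT but no knockin allele. All mice were female, were 8 weeks old at the first injection, and were killed 12 days after it, 7 days after the last one. The table has no row for SIGLEC12, EGFP or Cre, so the group labels were not checked against the transgene. The sample labels list 4 samples per group while the series description counts fewer mice, and the methods mention repeated libraries, so that P values measure the spread between these samples, which may in part be technical. The hour of the day at harvest and the lighting schedule are not given in the sources used here, and the part of either in any value was not tested.

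The molecular clock is a transcriptional feedback loop that runs in nearly every cell, the colonic epithelium included. BMAL1, the product of Arntl, pairs with CLOCK or NPAS2 and activates genes with E-boxes, among them the Per, Cry and Nr1d genes, Dbp and Tef. PER and CRY proteins inhibit that pair, and the nuclear receptors REV-ERB-alpha (Nr1d1) and REV-ERB-beta (Nr1d2) repress Arntl and Npas2 through response elements called ROREs. DBP and TEF activate genes with D-boxes. In peripheral tissues Arntl mRNA is therefore high when Dbp mRNA is low, and the other way round, so that the ratio of these mRNAs in a sample moves with the time of day.

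Promoter sequences are shown to set the RORE match of Arntl beside the E-box and D-box matches of some other members, Dbp not among them. RefSeq promoter windows on GRCm38.p6, from 250 bases before to 50 bases after a transcription start, were matched for 9 of the 10 members, not for Per2. They were searched on both strands for the E-box CACGTG, the related E-prime box CACGTT, the D-box letters TTATGTAA and TTACGTAA, and the RORE core TAGGTCA or TGGGTCA, none of which contains another. Capitals mark the match, and AACGTG is CACGTT read on the other strand. Arntl held 1 RORE core, in 1 of its 2 windows, 30 bases after its start, at chr7:113207530-113207559 (plus strand). Per1 held 1 E-box, also in 1 of 2 windows, 166 bases before its start, at chr11:69098743-69098828 (plus strand). Cry1 held an E-prime box and an E-box 79 and 60 bases before its start, at chr10:85185069-85185173 (minus strand), and Nr1d1 held an E-prime box 28 bases before its start, at chr11:98775378-98775445 (minus strand). Per3 held 2 D-boxes, 205 and 158 bases before its start, at chr4:151044776-151044910 (minus strand). Tef held an E-box in each of its 2 windows, of which the one at chr15:81811236-81811321 (plus strand) is shown.
Arntl: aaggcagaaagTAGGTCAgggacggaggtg
Per1: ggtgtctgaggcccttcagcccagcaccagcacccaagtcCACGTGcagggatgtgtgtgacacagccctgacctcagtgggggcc
Cry1: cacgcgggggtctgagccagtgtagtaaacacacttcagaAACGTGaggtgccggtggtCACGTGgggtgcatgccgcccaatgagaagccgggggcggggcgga
Nr1d1: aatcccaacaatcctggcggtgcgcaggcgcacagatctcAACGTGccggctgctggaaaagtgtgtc
Per3: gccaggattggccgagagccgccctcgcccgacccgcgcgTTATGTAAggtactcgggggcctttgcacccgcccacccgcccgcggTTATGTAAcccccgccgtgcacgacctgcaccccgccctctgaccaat
Tef: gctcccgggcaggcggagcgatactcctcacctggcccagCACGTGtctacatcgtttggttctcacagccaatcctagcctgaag
Cry2 held an E-prime box 166 bases before its start, and the windows of Dbp and Nr1d2 held none of these letters. Of 32851 windows of this length in the mouse genome, 7.15% held CACGTG, 4.69% CACGTT, 0.938% TTATGTAA, 0.119% TTACGTAA, 2.61% TAGGTCA and 3.98% TGGGTCA. A match describes the letters and is not evidence of binding.

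Over the tested genes, samples correlated with each other at 0.945 to 0.987 in log2(TPM + 1), and the median deviation of a sample from the mean of each gene was lowest in Siglec-XII 3 and 4. The clock genes spanned a wide range of levels. By mean TPM over the 8 samples, a unit that accounts for transcript length, the order was Dbp (95.6 TPM), Nr1d1 (81.5 TPM), Tef (43.5 TPM), Nr1d2 (30.2 TPM), Per1 (13.9 TPM), Cry2 (9.98 TPM), Arntl (8.36 TPM), Per2 (5.54 TPM), Per3 (5.31 TPM) and Cry1 (2.99 TPM). Neighbours that kept their order in all 8 samples were Tef over Nr1d2, Nr1d2 over Per1, Per1 over Cry2 and Per3 over Cry1. Dbp exceeded Nr1d1 in 3 of 8 samples, Cry2 exceeded Arntl in 5 of 8 and Per2 exceeded Per3 in 4 of 8, so these neighbours did not differ beyond their spread.

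Arntl, the activating member, was low in 1 sample of each group. Its level was 4.04, 12.5, 9.79 and 10.2 TPM in Control 1 to 4 and 7.66, 10.5, 7.78 and 4.45 TPM in Siglec-XII 1 to 4. Control 1 and Siglec-XII 4 lay below the other 6 samples, and the groups overlapped. On the log2(TPM + 1) scale the control mean was 3.25 ± 0.63 and the Siglec-XII mean 3.06 ± 0.45 (SD, n = 4 per group), and Siglec-XII minus control was -0.20 (95% interval -0.94 to 0.55).

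Of the repressors of Arntl, Nr1d1 varied widely and Nr1d2 hardly at all. Nr1d1 was at 34.3, 97.0, 103 and 115 TPM in Control 1 to 4 and at 80.5, 101, 58.1 and 62.8 TPM in Siglec-XII 1 to 4. Control 1 was the lowest of the 8 samples, 3.34-fold below Control 4, and the groups overlapped. The log2 means were 6.33 ± 0.80 and 6.23 ± 0.36 (SD, n = 4 each). Nr1d2 was at 29.8, 29.4, 26.9 and 32.2 TPM in controls and at 29.4, 32.0, 26.5 and 35.5 TPM in Siglec-XII samples, a 1.34-fold span. Its SD within groups stood at the 18.8th percentile of all tested genes, against the 94.4th percentile for Nr1d1 and the 92.6th for Arntl. In the annotation, 9.51% of the 31-base windows of Nr1d2 transcripts also occur in AC170187.1, and 7.85% of those of Nr1d1 occur on the other strand in Thra; whether strand was used in the quantification is not given in the sources used here, so that values of the sharing genes are uncertain to that extent.

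The Per genes encode the inhibitors whose mRNA follows E-box activation, and they were lowest in Siglec-XII 3. Per1 was at 17.8, 13.5, 14.2 and 14.3 TPM in controls and at 17.4, 15.9, 8.10 and 9.90 TPM in Siglec-XII samples. Per2 was at 9.45, 5.17, 6.09 and 4.92 TPM in controls and at 6.64, 6.22, 2.26 and 3.56 TPM in Siglec-XII samples. In both genes Control 1 was the highest sample and Siglec-XII 3 and 4 were below every other sample, while Siglec-XII 1 and 2 lay above the other 3 controls. Per3 was at 7.19, 5.67, 4.99 and 5.67 TPM in controls and at 5.50, 4.90, 3.61 and 4.99 TPM in Siglec-XII samples, with the same highest and lowest samples. Per2 had the widest span of the 10 genes, 4.19-fold.

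The Cry genes encode the partners of the PER proteins in repression. Cry1 was at 5.58, 2.27, 2.32 and 2.50 TPM in controls and at 3.78, 3.02, 2.36 and 2.11 TPM in Siglec-XII samples, with Control 1 above all others. Cry2 was at 11.7, 9.75, 12.2 and 9.14 TPM in controls and at 12.8, 10.7, 6.56 and 6.92 TPM in Siglec-XII samples. For Cry2 the 2 low samples were again Siglec-XII 3 and 4, the highest sample was Siglec-XII 1, and the groups overlapped. An antisense gene, D930015M05Rik, covers 4.67% of the exonic bases of Cry2.

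Dbp and Tef, activators of D-box genes, were high in the same samples. Dbp was at 139, 77.5, 74.1 and 91.9 TPM in controls and at 90.1, 98.5, 56.3 and 137 TPM in Siglec-XII samples. Tef was at 66.6, 37.2, 35.4 and 44.3 TPM in controls and at 41.3, 43.4, 31.8 and 48.1 TPM in Siglec-XII samples. In both genes Control 1 and Siglec-XII 4, the samples lowest in Arntl, were the 2 highest, and Siglec-XII 3 was the lowest. Exons of Sphk2 on the other strand cover 18.0% of the exonic bases of Dbp.

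Over the 10 genes, Control 1 was the highest of the 8 samples for 6 genes and the lowest for 2 (Arntl and Nr1d1), and Siglec-XII 3 was the lowest for 7. The ratio of Dbp to Arntl within a sample does not depend on scaling between samples other than through the added 1. Dbp minus Arntl on the log2(TPM + 1) scale was 4.80, 2.54, 2.80 and 3.05 in Control 1 to 4 and 3.40, 3.11, 2.71 and 4.66 in Siglec-XII 1 to 4. Control 1 and Siglec-XII 4 thus stood apart from the other 6 samples, and the group means were 3.30 ± 1.02 and 3.47 ± 0.84 (SD, n = 4 each). Nr1d1 minus Arntl varied less, from 2.75 to 3.55 over all samples.

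**Figure D1:**
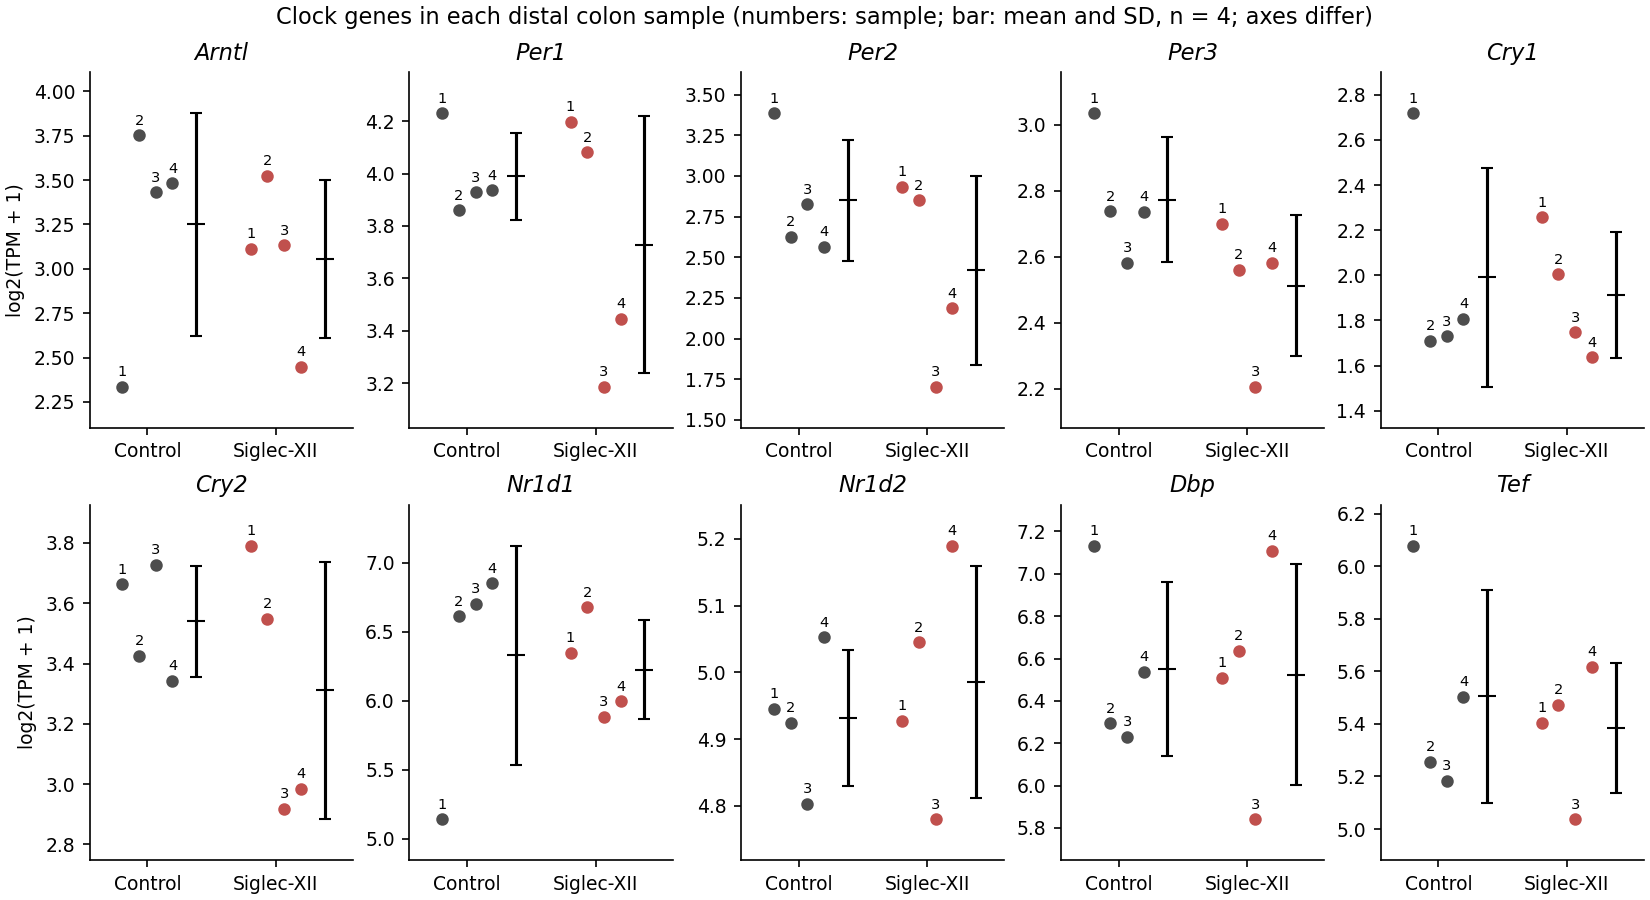
Level of each clock gene in log2(TPM + 1) (vertical axes, which differ between panels) in the 4 control samples (grey) and the 4 Siglec-XII samples (red), 1 numbered point per sample, with the mean and SD (n = 4) at the right of each group. The groups overlap for all 10 genes, Control 1 is lowest for Arntl and Nr1d1 and highest for 6 others, and Siglec-XII 3 is lowest for 7.

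The comparison of Siglec-XII with control samples asked whether knockin of the human gene went with a shift of the clock genes at baseline. None of the 10 genes passed at an adjusted P value of 0.05 (limma, Benjamini-Hochberg over all tested genes), where 0.0380% of all tested genes passed. None passed at an unadjusted P value of 0.05 either, where 8.87% of all tested genes did, 7.67% of all tested genes as lower in Siglec-XII. The 5 genes that passed after adjustment, outside the lists and picked out by these values, were Gm13394, Gm45063, Prh1, Gm7336 and Esr1, all higher in Siglec-XII. The smallest unadjusted P values among the clock genes in this limma fit were 0.131 for Per3 (adjusted P = 0.516) and 0.186 for Per2 (adjusted P = 0.545).

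The estimated differences were small against their intervals. On the log2(TPM + 1) scale, Siglec-XII minus control was -0.43 for Per2 (standard error 0.30, 95% interval -1.11 to 0.25), -0.26 for Per1 (-0.78 to 0.26) and -0.26 for Per3 (-0.62 to 0.09). It was -0.23 for Cry2 (-0.71 to 0.25), -0.08 for Cry1 (-0.65 to 0.49) and -0.10 for Nr1d1 (-0.92 to 0.72). It was -0.12 for Tef (-0.59 to 0.35), -0.03 for Dbp (-0.66 to 0.61) and 0.05 for Nr1d2 (-0.20 to 0.31). These intervals include 0 for all 10 genes, and for Arntl, Per2 and Nr1d1 they reach -0.92 or below, so that differences of that size were not excluded with 4 samples per group.

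A total of 9 of the 10 genes had a lower mean in Siglec-XII, as did 78.1% of all tested genes, and the median difference was -0.16 for the clock genes and -0.15 for all tested genes. After each sample was centred on the median of its tested genes, 4 of the 10 were lower, with a median difference of 0.05 for the clock genes and 0.06 for all. The direction thus turned with the scaling for Arntl, Cry1, Nr1d1, Dbp and Tef. Without Siglec-XII 3 and 4, a pair left out after the data were seen, 2 of the 10 were lower. No clock gene had groups that did not overlap, as 5.11% of all tested genes had. Without Siglec-XII 3, the difference was -0.0799 for Per1, -0.19 for Per2, -0.16 for Per3 and -0.0980 for Cry2. Without Control 1, the Nr1d1 difference went from -0.10 to -0.50 (limma adjusted P = 0.447, unadjusted P = 0.0298).

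**Figure D2:**
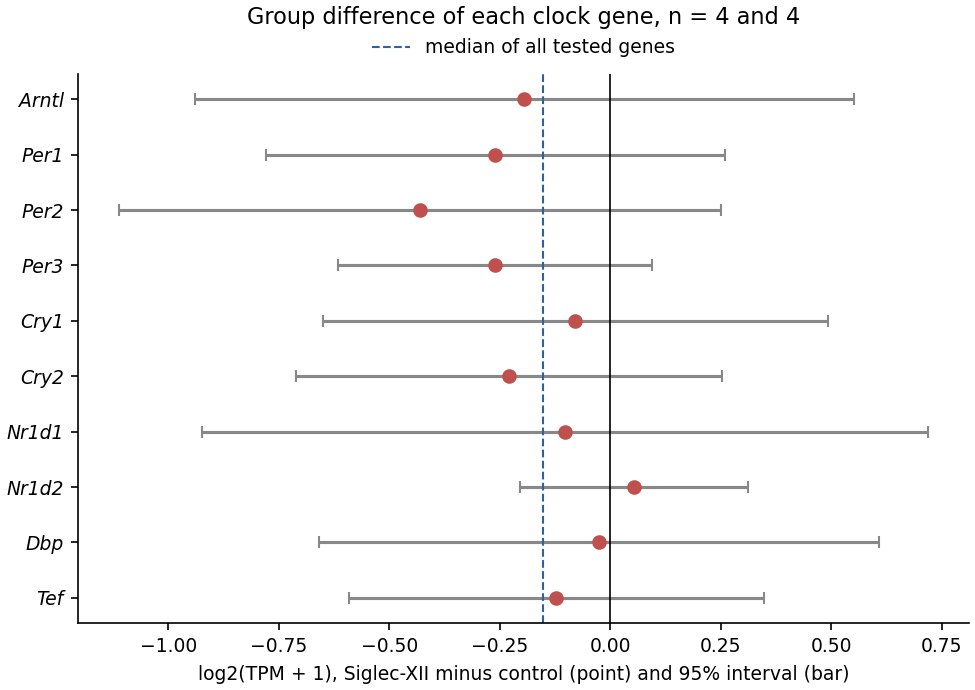
Difference of each clock gene between the groups, Siglec-XII minus control in log2(TPM + 1) (horizontal axis), with its 95% interval from limma (n = 4 and 4). Every interval crosses 0 (solid line), and the dashed line marks the median of all tested genes, -0.15.

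The relations among the clock genes were then examined over the 8 samples, beginning with Arntl. Arntl followed Nr1d1 (Pearson r = 0.87, exact permutation P = 0.0047, adjusted P = 0.042 over 45 pairs; Spearman rho = 0.71, exact P = 0.058, adjusted P = 0.29). With any 1 sample left out, this r was 0.76 to 0.93 and no longer passed (exact permutation, adjusted P = 0.065 to 0.22). The relation was positive although Nr1d1 represses Arntl in the loop described above, and the reason was not tested. Between Nr1d1 and Dbp r was -0.42 (exact permutation P = 0.30, adjusted P = 0.50), and 0.04 without Control 1. Arntl ran against Dbp (r = -0.68, exact permutation P = 0.060, adjusted P = 0.18; rho = -0.43, exact P = 0.30) and against Tef (r = -0.69, exact permutation P = 0.059, adjusted P = 0.18; rho = -0.45, exact P = 0.27), and neither relation passed. For Cry1 r was -0.49, for Nr1d2 -0.30, for Per3 -0.28, for Per2 -0.10, for Per1 0.09 and for Cry2 0.18, with exact adjusted P values between 0.38 and 0.90.

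Arntl fell into 2 sets, with Control 1 and Siglec-XII 4 apart from the other 6. Over those 6 samples r was 0.71 with Nr1d1 (exact permutation P = 0.12), 0.33 with Dbp (exact P = 0.52) and 0.27 with Tef (exact P = 0.59). The opposition of Arntl to Dbp and Tef was thus not seen with both low samples left out, which also narrows the range of Arntl. With any 1 sample left out it remained, at r = -0.90 to -0.51 for Dbp and -0.81 to -0.37 for Tef. For both genes it was strongest without Siglec-XII 3 and weakest without Control 1. The r of Arntl with Cry1 was -0.48 over the 6 samples (exact P = 0.31), but 0.13 without Control 1 alone. Without Siglec-XII 3 and 4 instead, r with Arntl was -0.95 for Cry1, -0.94 for Per2, -0.88 for Tef, -0.86 for Dbp, -0.82 for Per1 and -0.80 for Per3, with exact permutation P values that did not pass after adjustment (0.097 to 0.18).

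**Figure D3:**
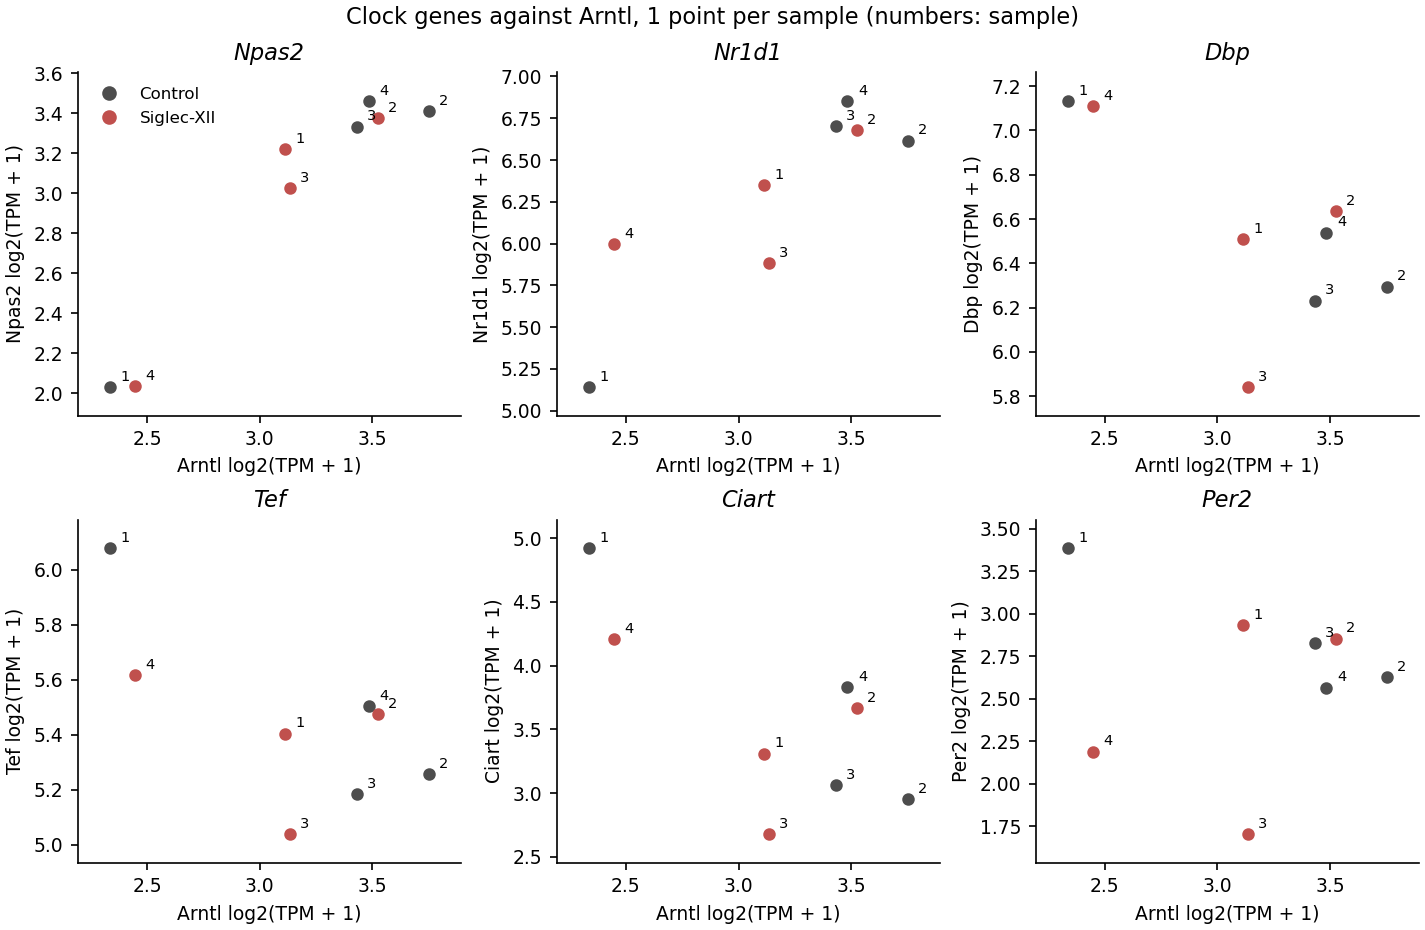
Npas2, Nr1d1, Dbp, Tef, Ciart and Per2 (vertical axes) against Arntl (horizontal axes), all in log2(TPM + 1), 1 numbered point per sample (grey, control; red, Siglec-XII). Control 1 and Siglec-XII 4 lie at the left, with Arntl at 2.33 and 2.45 against 3.11 to 3.75 in the others; they are lowest in Npas2 and highest in Dbp, Tef and Ciart.

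Centring each sample on its median made the r with Arntl more negative for each Per and Cry gene, Dbp and Tef. The r with Arntl became -0.90 for Per3, -0.88 for Cry1, -0.87 for Tef, -0.78 for Dbp, -0.68 for Per2, -0.64 for Per1, -0.53 for Cry2 and -0.41 for Nr1d2, and was 0.81 for Nr1d1. None of these 9 passed after adjustment over the 45 pairs, but Per3, Cry1 and Tef missed the threshold narrowly. Their exact permutation P values were 0.0048, 0.0066 and 0.0078, each with an adjusted P of 0.0501. For the other genes the adjusted P was 0.092 to 0.36. With quantile normalization Per3 and Tef passed (exact permutation, adjusted P = 0.036 and 0.045). The sign for Per1 and Cry2 thus turned with the scaling. The median deviation of the tested genes of a sample from their means over all samples ran from -0.30 to 0.15 in log2 units, and its r over the samples was 0.74 with Arntl (rho = 0.67) and 0.73 with Cry2 (rho = 0.38), both with an exact permutation P of 0.042 and an adjusted P of 0.48 over 80 relations with this deviation and with marker sums. The part of this shift in the relations was not tested beyond the centring.

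Of all 45 pairs, 32 had a positive and 13 a negative r, and 5 passed at an adjusted exact P value of 0.05, all of them positive. Beside Arntl with Nr1d1 these were Per1 with Per2 (r = 0.96, exact permutation P = 0.00015, adjusted P = 0.0067; rho = 0.93, adjusted P = 0.050), Dbp with Tef (r = 0.92, exact permutation P = 0.00089, adjusted P = 0.020; rho = 0.98, adjusted P = 0.018), Per1 with Cry2 (r = 0.92, exact permutation P = 0.0026, adjusted P = 0.029; rho = 0.76, adjusted P = 0.24) and Per2 with Cry2 (r = 0.90, exact permutation P = 0.0017, adjusted P = 0.026; rho = 0.88, adjusted P = 0.096). By Spearman's rho only Dbp with Tef passed among the 45. The share of positive or passing pairs among all pairs of tested genes was not computed. Positive r with Arntl was common outside the clock, with a median of 0.515 over all tested genes. The counts among the 45 pairs are therefore not shown to be particular to clock genes. With each of the 8 samples left out in turn, Per1 with Per2 passed 7 times (not without Siglec-XII 3), Dbp with Tef 6 times (not without Control 2 or 3), Per2 with Cry2 4 times and Per1 with Cry2 2 times. Without the 2 samples farthest from the median of the gene named before the other, r was 0.84 for Per1 with Per2, 0.92 for Dbp with Tef, 0.62 for Per1 with Cry2 and 0.97 for Per2 with Cry2 (exact permutation P = 0.019, 0.0042, 0.19 and 0.0028).

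**Figure D4:**
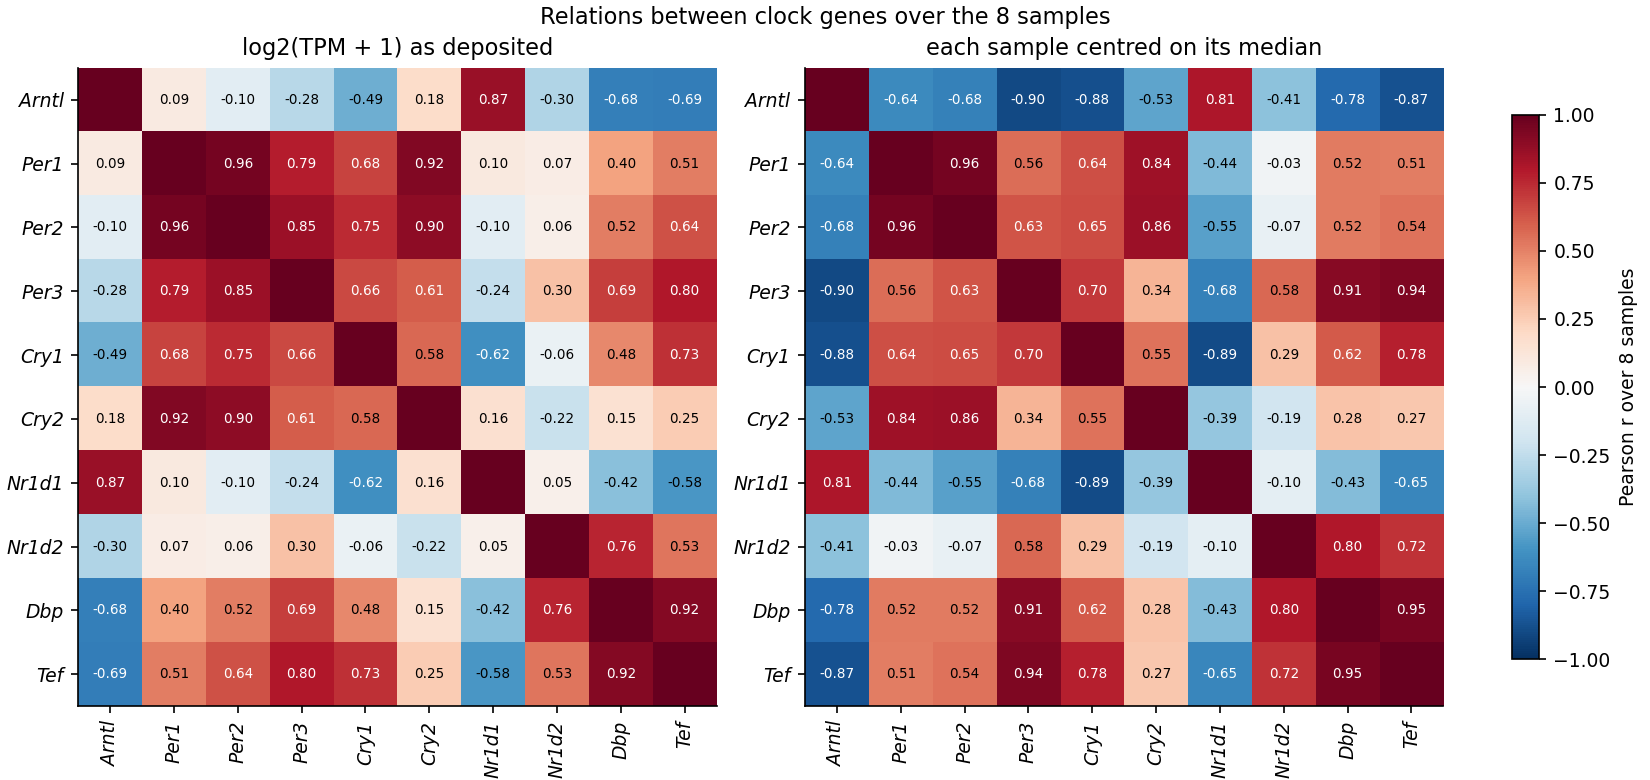
Pearson r over the 8 samples for each pair of clock genes (rows and columns; red positive, blue negative), from log2(TPM + 1) as deposited (left) and with each sample centred on its median (right). On the left 32 of 45 pairs are positive; on the right the whole Arntl row is negative except Nr1d1, at 0.81.

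Subtracting the mean of each group left the called relations at similar sizes, from 0.87 for Arntl with Nr1d1 to 0.95 for Per1 with Per2. The exact test within groups then has only 576 pairings, and no pair passed after adjustment.

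Other genes of the clock were read beside these 10. In the limma fit none of 6 further core clock genes, 7 clock regulators and 5 clock output genes that were tested passed at an adjusted P value of 0.05 or an unadjusted one. By mean, 5 of 6 core genes, 6 of 7 regulators and 3 of 5 output genes were lower in Siglec-XII, with medians of -0.21, -0.21 and -0.24 against -0.15 for all tested genes. Median-centring turned this to 3 of 6, 3 of 7 and 3 of 5.

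Npas2, the alternative partner of BMAL1, followed Arntl most closely among the clock lists. It was at 3.09, 9.63, 9.08 and 10.0 TPM in Control 1 to 4 and at 8.33, 9.39, 7.15 and 3.10 TPM in Siglec-XII 1 to 4. The same 2 samples were low as for Arntl, and r between the genes was 0.96, the 17th highest of the 13163 genes set against Arntl (exact permutation P = 0.00087, adjusted P = 0.024 over 84 relations of the list genes with Arntl, Dbp and Per2; rho = 0.90, adjusted P = 0.096). Over the other 6 samples it was 0.81 (exact permutation P = 0.050). Clock itself was at 11.4, 18.4, 18.2 and 18.4 TPM in controls and at 18.7, 16.3, 10.9 and 8.60 TPM in Siglec-XII samples, and its r with Arntl was 0.81 (exact permutation P = 0.022, adjusted P = 0.17; rho = 0.48).

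The other relations of these 84 that passed were Ciart with Dbp and Wee1 and Por with Per2. Ciart, a repressor of the BMAL1 complex, was at 29.3, 6.74, 7.37 and 13.2 TPM in controls and at 8.92, 11.7, 5.40 and 17.5 TPM in Siglec-XII samples, a 5.43-fold span. Control 1 and Siglec-XII 4 were again the highest, and r with Dbp was 0.94 (exact permutation P = 0.00032, adjusted P = 0.014; rho = 0.95, adjusted P = 0.048), and 0.92 without Control 1 and Siglec-XII 3. With Arntl it was -0.72 (exact permutation P = 0.045, adjusted P = 0.23; rho = -0.52), and 0.23 without Control 1 and Siglec-XII 4. Wee1, a kinase that restrains mitotic entry, had an r of 0.97 with Per2 (exact permutation P = 7.44e-05, adjusted P = 0.0063; rho = 0.98, adjusted P = 0.033), and 0.91 without Control 1 and Siglec-XII 3. Por, which donates electrons to cytochrome P450 enzymes, had an r of 0.92 with Per2 (exact permutation P = 0.0014, adjusted P = 0.030; rho = 0.79, adjusted P = 0.29), and 0.78 without those samples. Bhlhe41, Rora, Fbxl21 and Hlf did not pass the filter; Bhlhe41 was at 8.74 TPM in Control 1 and between 0.21 and 2.99 TPM in the other samples.

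Genes outside the clock lists also resembled Arntl. By r over the 8 samples, the 5 tested genes most like Arntl were Slx4ip, Olfr1284, Pofut1, Gmeb2 and Mttp (r = 0.98 for each), and the 5 most unlike were Pet100, Gng10, Rps23-ps1, Ndufb2 and Nsa2 (-0.93 to -0.89). A total of 309 genes (2.35%) had an r of at least 0.9, and the median over all tested genes was 0.515. Nr1d1 ranked 609th from the highest of the 13163 genes set against Arntl. Tef and Dbp ranked 196th and 201st from the lowest. With median-centring r was between 0.20 and 0.81 for the 5 most alike and 0.94 for Npas2. Those 5 were picked for their r before centring, so a fall was likely for them. Npas2 came from a list, and the comparison does not set it apart.

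Glucocorticoid targets, which follow a hormone with a daily rhythm, and immediate early genes, which respond quickly to stimuli, were read beside them. None of the 5 glucocorticoid targets (Tsc22d3, Fkbp5, Zbtb16, Sgk1 and Dusp1) passed in limma, with or without adjustment. Of 5 immediate early genes, 3 had a higher and 2 a lower mean in Siglec-XII (4 and 1 after median-centring), none passed after adjustment, and Fos passed before it, at 6.70 against 5.96 in log2(TPM + 1) (unadjusted P = 0.047, adjusted P = 0.515). Fos was at 36.4 TPM in Control 1, the lowest of the 8 samples, and at 57.7 TPM in Siglec-XII 4, the lowest of its group. Egr1 was likewise lowest in Control 1 and Siglec-XII 4, at 2.15 and 2.27 TPM against 5.46 to 10.4 TPM in the others. Fosb and Ier2 were lowest in Siglec-XII 4 (0.42 and 78.6 TPM) but not lowest of the controls in Control 1, and Junb was lowest in Control 3 (95.5 TPM).

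The tissue showed the markers of distal colon epithelium in every sample, with all 8 markers tested and a summed level of 4610 to 6171 TPM in controls and 5031 to 6291 TPM in Siglec-XII samples. This sum was lowest in Control 1 and, within its group, in Siglec-XII 4, and its r over the 8 samples was 0.90 with Arntl (exact permutation P = 0.0013, adjusted P = 0.10; rho = 0.86) and 0.85 with Nr1d1 (exact permutation P = 0.0064, adjusted P = 0.25; rho = 0.67). Over the 6 samples other than Control 1 and Siglec-XII 4 it was 0.76 with Arntl (exact permutation P = 0.090). Car1 and Epcam, the largest parts of this sum, and Muc2 were lowest in Control 1, and Vil1 and Krt20 in Siglec-XII 4. Other epithelial markers were not low in Control 1. Cdx2 was at 11.6 TPM there against 4.16 to 13.4 TPM elsewhere, Slc26a3 at 523 against 347 to 553 TPM and Hoxb13 at 434 against 358 to 491 TPM. By mean, 4 of the 8 markers were higher and 4 lower in Siglec-XII. All 6 smooth muscle markers had lower means in Siglec-XII, with sums of 623 to 1003 TPM in controls and 303 to 651 TPM in Siglec-XII samples, lowest in Siglec-XII 4. All 4 neutrophil markers were lower by mean, with sums of 23.4 to 132 TPM against 2.27 to 8.67 TPM, and all 5 fibroblast markers had lower means in log2(TPM + 1) while their sum was highest in Siglec-XII 4, at 73.7 TPM. The 4 plasma and B cell markers summed to 15.7 TPM in Control 1 and to 0.91 to 5.21 TPM in the other samples, and this sum had an r of 0.83 with Tef (exact permutation P = 0.018, adjusted P = 0.48; rho = 0.71), and 0.15 without Control 1 and Siglec-XII 3. None of the 80 relations passed after adjustment. The 4 markers of enteric neurons and glia summed to 9.35 TPM in Control 1 and to 3.71 to 5.76 TPM elsewhere, and adipocyte markers to 0.62 to 5.84 TPM in controls and 1.88 to 4.02 TPM in Siglec-XII samples. The part of cell makeup in the clock gene levels was not tested, and in whole tissue fewer cells of a type cannot be told apart from less RNA per cell.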

How the data were processed

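The members and gene lists were chosen with earlier results of these data known. RNA-Seq libraries (stranded, paired 100-base reads) from the distal colon of 8 mouse samples were quantified by the authors with kallisto 0.45.0 on GRCm38, per the submitters' processing notes, and deposited as log2 values, log2(TPM + 1), 1 per gene and sample, with no adjustment between samples. TPM keeps no depth, so the number of samples limits the precision and no interval from counts was computed.

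Genes with at least 1 TPM in at least 4 samples were kept (13164) and the groups were compared by a moderated linear model with an intensity trend (limma 3.58.1, R 4.3.3; Benjamini-Hochberg adjustment over all genes), which was tested on simulated data. Over the 45 pairs, Pearson's r and Spearman's rho were tested by two-sided exact permutation over all 40320 pairings (Python 3.11.15, scipy 1.17.1). Genes named are the 10 members, the measured genes of the clock, glucocorticoid and immediate early lists, and the 5 tested genes with the highest and the 5 with the lowest r to Arntl. Cell type markers and genes that overlap a member or share its sequence are named as well. The 5 genes that passed in limma after adjustment are also named, picked by their values in these data. Symbols are those of the table; overlaps came from GENCODE M21 (GRCm38), which held 98.3% of the gene identifiers, and promoters from RefSeq (GRCm38.p6). Alternatives were median-centring, quantile normalization, a pseudocount of 0.1, other filters, array weights, a replicate block, removed group means and left-out samples. Samples were grouped by their labels, which give no batch. Other tissues, time points and cell lines were not analysed here. The values of 1 listed gene are not reported here.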

Additional observations from a re-analysis of the deposited data

Results flagged for a closer look

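A single sample lay far from the other 3 of its group in 5 of 84 sets of 4 samples examined among the clock genes and the other gene lists. At 1 in 20, chance alone would give 4.2 on average. In all 5 sets the sample was Control 1. Since genes are related over the samples, the count cannot tell whether these 5 arose by chance. The gap to the nearest control, as a share of the range of the controls, was 0.972 for Clock (3.63 in log2(TPM + 1) against 4.26 to 4.28), 0.91 for Npas2 (2.03 against 3.33 to 3.46) and 0.903 for Cry1 (2.72 against 1.71 to 1.81). It was 0.892 for Wee1 (3.70 against 3.26 to 3.31) and 0.861 for Nr1d1 (5.14 against 6.62 to 6.85). Control 1 was thus below the other controls for Clock, Npas2 and Nr1d1 and above them for Cry1 and Wee1.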

How the results depend on the processing

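No clock gene passed at an adjusted limma P value of 0.05 under any other setting tried (smallest adjusted P = 0.292), and 34 of 169 differences of single genes turned sign. Median-centring gave differences of 0.0176 for Arntl, 0.13 for Cry1, 0.11 for Nr1d1, 0.19 for Dbp and 0.0905 for Tef, and r with Arntl of -0.64 for Per1 and -0.53 for Cry2. Quantile normalization gave 0.0341 for Arntl, 0.12 for Cry1, 0.0709 for Dbp and 0.0041 for Tef, and r of -0.65 for Per1 and -0.54 for Cry2. Array weights gave 0.11 for Per1, 0.0880 for Per2, 0.20 for Cry1, 0.0496 for Cry2, 0.17 for Dbp and 0.0629 for Tef. Single samples left out moved Arntl from -0.50 to 0.0075, Cry1 from -0.19 to 0.16, Nr1d1 from -0.50 to 0.0728, Nr1d2 from -0.0139 to 0.12, Dbp from -0.22 to 0.20 and Tef from -0.23 to 0.0688, with 0 to 1 clock genes (Nr1d1, without Control 1) at an unadjusted P value of 0.05. They moved Per1 from -0.42 to -0.0799, Per2 from -0.60 to -0.19 and Cry2 from -0.39 to -0.0980, each nearest to 0 without Siglec-XII 3. They moved r with Arntl from -0.22 to 0.50 for Per1, -0.38 to 0.46 for Per2, -0.44 to 0.29 for Per3, -0.87 to 0.13 for Cry1, -0.17 to 0.50 for Cry2 and -0.43 to 0.13 for Nr1d2. For Dbp and Tef this r stayed negative, at -0.90 to -0.51 and at -0.81 to -0.37.

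Some samples were also left out together, a choice made after seeing the data. Without Siglec-XII 3 and 4, the differences were 0.0693 for Arntl, 0.15 for Per1, 0.0425 for Per2, 0.14 for Cry1, 0.13 for Cry2, 0.18 for Nr1d1 and 0.0234 for Dbp, and r with Arntl was -0.82 for Per1, -0.50 for Cry2 and 0.0773 for Nr1d2, with the opposition to the other Per and Cry genes, Dbp and Tef larger than in all samples. Without Control 1 and Siglec-XII 4, the differences were 0.25 for Cry1 and -0.0091 for Nr1d2, and r with Arntl was 0.34 for Per2, 0.53 for Per3, 0.42 for Nr1d2, 0.33 for Dbp and 0.27 for Tef.

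The genes called over the whole table numbered 5, and 3 with no filter, 3 with at least 5 TPM in 4 samples (where Cry1 was not tested), 18 with array weights, 2 to 6 with a sample left out (2 without Siglec-XII 2, 3 without Siglec-XII 1 or 4) and 2 without Siglec-XII 3 and 4. Called pairs numbered 5, and 3 with median-centring, 9 with quantile normalization (of which 3 negative: Arntl with Per3, Arntl with Tef and Cry1 with Nr1d1), 0 with group means removed, 0 without Siglec-XII 3 and 4 and 1 to 6 with a sample left out. It was 1 without Control 2 or Siglec-XII 3, 2 without Control 4 or Siglec-XII 4, and 3 without Control 3, Siglec-XII 1 or Siglec-XII 2. The 6 pairs without Control 1 included Nr1d2 with Dbp (r = 0.94) and Nr1d2 with Tef (r = 0.96). Over all 8 samples r for these pairs was 0.76 and 0.53, and neither passed (exact permutation, adjusted P = 0.15 and 0.35). Their rho was 0.83 and 0.86. The causes were not tested, save that fewer samples or pairings raise the smallest P value that can be reached. Deviations of same-numbered samples had correlations of -0.16, -0.20, 0.10 and -0.0025. These values gave no sign that the numbers pair the samples, but they cannot exclude it. With the numbers as a block, 4 genes and no clock gene passed. No pair passed either, since 4 paired differences allow none to pass.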
